A study of Homo sapiens with 12 samples.

Results

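The BCL2 family genes described here were 10 of the 18417 genes measured, taken by symbol: the anti-apoptotic BCL2, BCL2L1, MCL1 and BCL2A1, the effectors BAX and BAK1, and the BH3-only genes BCL2L11, BID, BBC3 and PMAIP1. Each of the 10 was represented by 1 probe set annotated to that symbol alone. The study asked what shRNA depletion of NF-kB subunits does to gene expression in 2 lymphoma cell lines, the Hodgkin line U-H01 and the diffuse large B-cell line HBL-1. All 12 arrays came from cells transduced with hairpins against RelB and cRel, 2 sequences for each target, and the control arrays carried the hairpins too. Doxycycline, which turns the hairpin on, was given to some cells of each transduced population and withheld from the rest, and the titles number 2 time points, of a length that no label states. The 4 groups were uninduced U-H01 (4 arrays), U-H01 labelled induced (4 arrays), uninduced HBL-1 (2 arrays) and induced HBL-1 (2 arrays). U-H01 replicates 1 and 2 are the population titled B1 at time points 1 and 2, and replicates 3 and 4 are the population titled B2. HBL-1 replicates 1 and 2 are the population titled C. Which hairpin each title letter stands for is not spelled out, and a RelA depletion was not analysed here. The labels do not say whether the arrays of 1 group stem from independent cultures. The p-values therefore reflect array-to-array spread alone, possibly only technical.

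BCL2 family proteins decide whether the outer mitochondrial membrane stays intact. The anti-apoptotic members hold the effectors BAX and BAK1 in check, and the BH3-only members either occupy the anti-apoptotic proteins or activate the effectors. Once BAX and BAK1 open the membrane, cytochrome c leaves and caspases are activated. In lymphoid cells NF-kB is a known activator of BCL2L1 and BCL2A1, and B-cell lymphomas often depend on 1 or more of the anti-apoptotic members for survival. Several of these genes make splice forms with opposing roles, such as the long and short forms of BCL2L1 and of MCL1. A gene-level probe set does not separate those forms, and RNA does not show the protein, its location or its binding partners.

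Expression values are the deposited log2 levels. Differences are given on the log2 scale, where 1 is a change of 2-fold, with standard errors (SE) from limma and p-values adjusted over the 18417 genes by the Benjamini-Hochberg method. A gene was called when its adjusted p was under 0.05. Probe sets differ in their binding, so no gene's level was set against another gene's, and comparisons were made within a gene. The 4 comparisons between groups share arrays with one another and are given side by side.

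The hairpin targets were examined first. In the U-H01 arrays RELB, the gene of RelB, read 7.23, 7.38, 7.54 and 7.45 without doxycycline and 7.22, 7.26, 7.39 and 7.14 in the arrays labelled induced, a difference of -0.15 ± 0.09 (SE, adjusted p = 0.209 in limma). REL, the gene of cRel, read 10.05, 9.98, 9.92 and 9.88 against 10.14, 10.30, 9.95 and 10.26, a difference of 0.20 ± 0.09 (adjusted p = 0.0716). Neither target was called lower in U-H01, so these arrays are named by their label throughout. In HBL-1, REL read 9.70 and 9.78 uninduced and 9.13 and 9.37 induced, a difference of -0.49 ± 0.12 that did not pass (adjusted p = 0.121), and RELB read 7.67 and 7.67 against 7.57 and 7.40 (-0.19 ± 0.12, adjusted p = 0.744).

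The 2 U-H01 groups stood far apart on the whole array. Over all genes the correlation was 0.991 to 0.996 for arrays within a group, 0.893 to 0.909 for uninduced against labelled induced U-H01 arrays, 0.886 to 0.898 for uninduced U-H01 against HBL-1 arrays, and 0.903 to 0.915 for U-H01 labelled induced against HBL-1 arrays. The U-H01 arrays labelled induced were thus at least as close to HBL-1 as to uninduced U-H01. In an identity check among the 8 U-H01 arrays, 4 failed to match the others. For every difference between the U-H01 groups given next, an effect of the hairpin and a difference in the identity of the cells cannot be told apart. The identity check does not tell which U-H01 arrays are as labelled. Each comparison of U-H01 with HBL-1 given next therefore holds only for the arrays as labelled. Of 6 listed B-cell genes, 5 were measured, and their mean level per array was 6.23 to 6.48 in uninduced U-H01, 8.61 to 8.89 in U-H01 labelled induced, 10.31 to 10.35 in uninduced HBL-1 and 10.19 to 10.26 in induced HBL-1. In uninduced U-H01 MS4A1, CD79A and CD22 lay below the array median, and in U-H01 labelled induced only MS4A1 did. CD79A (means 5.73 uninduced and 11.04 labelled induced), PAX5 (9.05 and 11.81) and CD22 (6.09 and 10.19) were called higher, where 22.4% of all genes were. CD79B (6.32 and 6.27) and MS4A1 (4.49 and 4.52) were not called, and averaged 10.92 and 10.98 in uninduced HBL-1. The 6 Hodgkin cell markers averaged 7.80 to 7.87 per array in uninduced U-H01 and 7.98 to 8.24 in U-H01 labelled induced, but moved in opposite directions. TNFRSF8, the gene of CD30, had means of 6.89 and 11.59, TRAF1 5.87 and 8.58 and IRF4 10.90 and 11.65, all called higher. CD274 (9.91 and 4.11) and FUT4 (6.85 and 6.38) were called lower, and CCL17 (6.59 and 6.56) was not called. None of the 5 measured myeloid genes lay above the array median in any group, and of the 7 measured T and NK cell genes CD3D, CD3E, CD3G, CD2 and NCAM1 lay below it in all 4 groups. CD7 lay above it in all 4 groups and NKG7 in all but uninduced HBL-1, and NKG7 (0.62 ± 0.14) and CD2 (0.36 ± 0.10) were called higher in U-H01 labelled induced. The part of these shifts in the differences given next was not tested, and in bulk RNA fewer cells of a type and less RNA per cell cannot be told apart.

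Among the 10 genes, 8 were called between U-H01 labelled induced and uninduced arrays, 2 higher and 6 lower. The background is high: 45.8% of all genes were called in this comparison, 22.4% higher and 23.5% lower. The sizes spread widely, and 5 of the 10 (50.0%) differed by more than 2-fold, against 13.0% of all genes. The 5 were BCL2L1, BCL2L11 and PMAIP1, which were lower, and MCL1 and BID, which were higher. The arrays of both groups did not overlap for 7 of the 10 genes, and 41.1% of all genes had no overlap. In HBL-1 none of the 10 was called, where 0.608% of all genes were, 0.418% higher and 0.190% lower.

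Promoter sequences are shown for the 3 genes that were lower by over 2-fold in U-H01, to give the DNA letters next to their start sites. They come from RefSeq (GRCh38.p14), read 5′ to 3′ on the gene's strand, and cover the 250 bases before an annotated transcript start (BCL2L1 has 2 such windows, of which the 1 listed first is shown). Capitals mark matches, on either strand, to the GC box GGGCGG or the FOXO core GTAAACA, and lower case the rest. The BCL2L1 window is chr20:31723964-31724213 on the minus strand, BCL2L11 is chr2:111120664-111120913 on the plus strand, and PMAIP1 is chr18:59899746-59899995 on the plus strand.
BCL2L1: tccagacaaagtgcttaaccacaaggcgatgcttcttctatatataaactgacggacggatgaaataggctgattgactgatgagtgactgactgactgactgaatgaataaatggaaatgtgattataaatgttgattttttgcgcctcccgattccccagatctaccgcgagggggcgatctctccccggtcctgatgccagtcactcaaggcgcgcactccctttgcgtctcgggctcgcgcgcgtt
BCL2L11: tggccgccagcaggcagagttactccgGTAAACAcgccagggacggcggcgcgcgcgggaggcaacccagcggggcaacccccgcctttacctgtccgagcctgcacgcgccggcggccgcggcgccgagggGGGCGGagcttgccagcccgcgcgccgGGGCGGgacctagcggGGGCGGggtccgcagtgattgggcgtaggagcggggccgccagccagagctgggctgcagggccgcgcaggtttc
PMAIP1: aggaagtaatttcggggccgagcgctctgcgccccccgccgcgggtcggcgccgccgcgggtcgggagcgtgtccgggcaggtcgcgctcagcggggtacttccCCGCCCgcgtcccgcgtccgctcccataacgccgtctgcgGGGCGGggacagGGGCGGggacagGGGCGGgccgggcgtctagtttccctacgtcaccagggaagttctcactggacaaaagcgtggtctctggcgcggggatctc
The BCL2L1 window has no capitals and a GC share of 50.0%, the BCL2L11 window has 3 GC boxes and 1 FOXO core at 76.8% GC, and the PMAIP1 window has 4 GC boxes at 72.8% GC. No searched motif lay in all 3 of these windows. That describes the letters of 250 bases a gene, and a shared regulator was not tested.

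**Figure D1:**
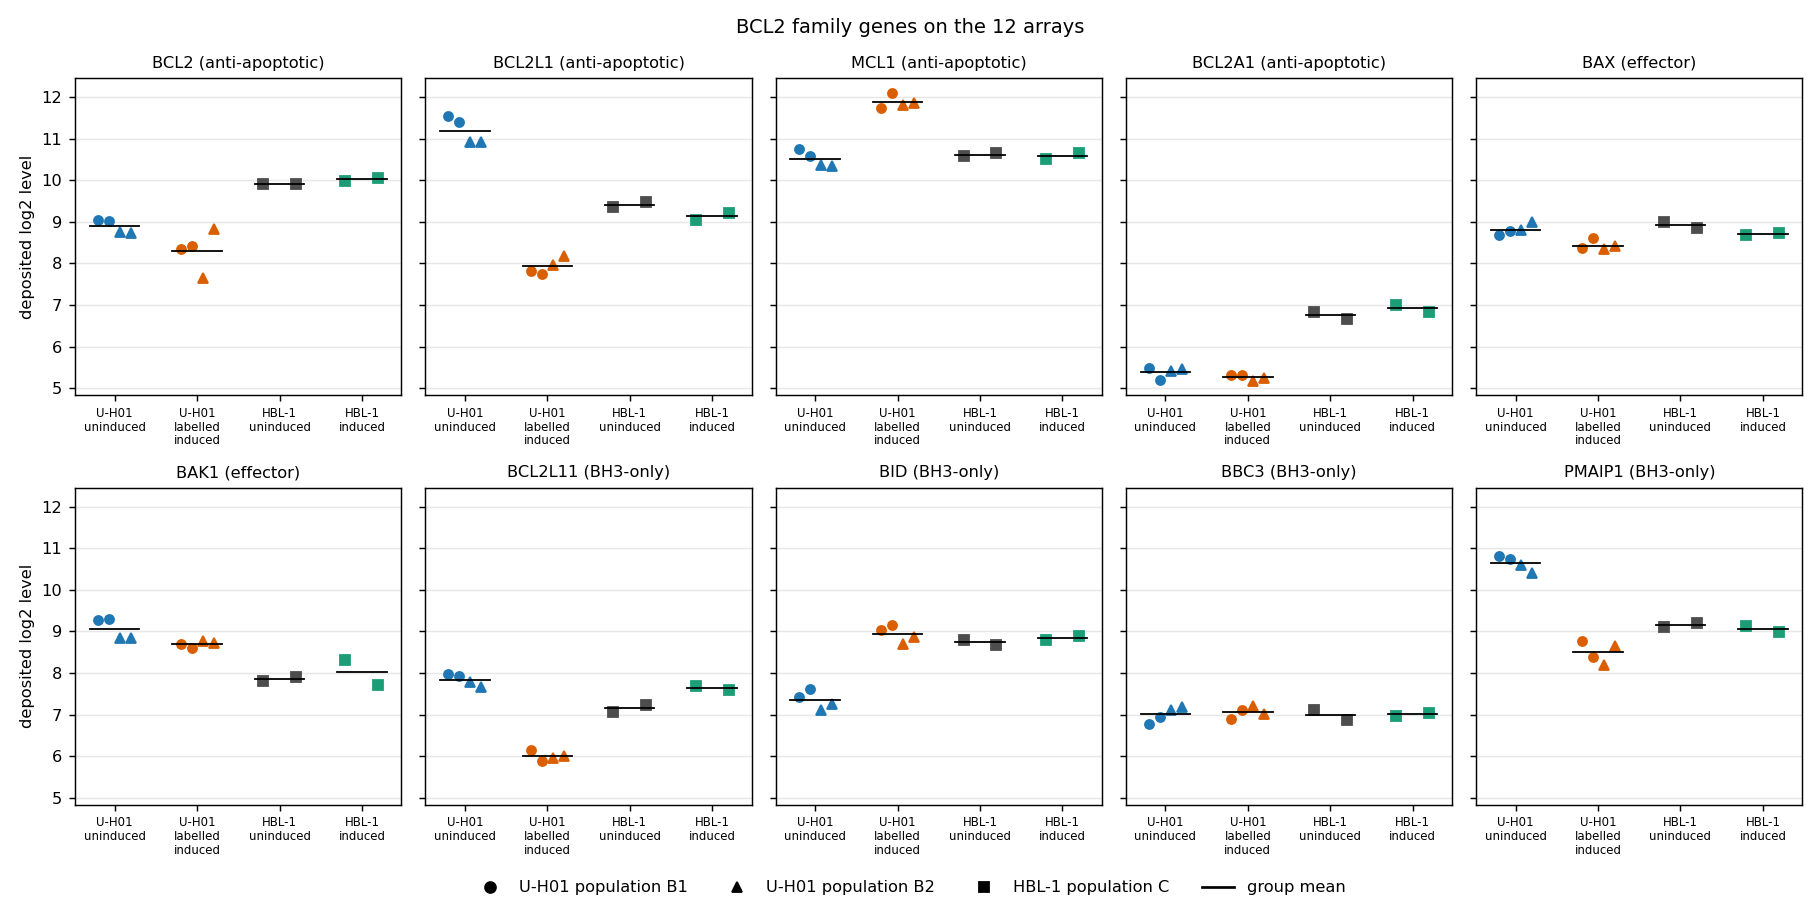
Deposited log2 levels (vertical axis) of the 10 BCL2 family genes on the 12 arrays, 1 panel a gene, with points for arrays, point shapes for the populations B1, B2 and C, and bars for group means. In uninduced and labelled induced U-H01 the means are 11.20 and 7.93 for BCL2L1 and 10.51 and 11.88 for MCL1, while the HBL-1 group means lie within 0.49 of each other in every panel.

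BCL2L1 encodes BCL-XL, an anti-apoptotic protein of the mitochondrial membrane. Its level was 11.55, 11.40, 10.92 and 10.92 in the uninduced U-H01 arrays and 7.82, 7.76, 7.97 and 8.19 in those labelled induced. It was 9.36 and 9.48 in uninduced HBL-1 and 9.06 and 9.22 in induced HBL-1. The 4 groups did not overlap, with uninduced U-H01 highest, both HBL-1 groups between and U-H01 labelled induced lowest. The difference within U-H01 was -3.26 ± 0.15 (95% interval -3.58 to -2.94, adjusted p = 1.43e-09 in limma), or 9.60-fold lower. By absolute size it ranked 317 among the 18417 genes, first among the 10 described here. Uninduced U-H01 was higher than uninduced HBL-1 by 1.78 ± 0.18 (3.43-fold, adjusted p = 3.82e-06), and U-H01 labelled induced differed from induced HBL-1 by -1.20 ± 0.18 (2.30-fold lower, adjusted p = 0.000131). The line with the higher BCL2L1 level thus depended on which U-H01 group was taken.

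MCL1 encodes an anti-apoptotic protein that is quickly made and quickly degraded. In U-H01 its difference ran opposite to that of BCL2L1. Its level was 10.76, 10.60, 10.37 and 10.33 in uninduced arrays and 11.75, 12.11, 11.81 and 11.87 in arrays labelled induced, with no overlap. The difference was 1.37 ± 0.10 (1.16 to 1.58, adjusted p = 9.73e-08 in limma), or 2.58-fold higher. In HBL-1 it was 10.58 and 10.65 uninduced and 10.52 and 10.65 induced, within the range of the uninduced U-H01 arrays. Uninduced U-H01 and uninduced HBL-1 differed by -0.10 ± 0.12 (-0.36 to 0.16, adjusted p = 0.563), whereas U-H01 labelled induced exceeded induced HBL-1 by 1.30 ± 0.12 (2.46-fold, adjusted p = 1.54e-06).

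BCL2, the founding anti-apoptotic member, set the arrays labelled U-H01 apart from those of HBL-1 in both states. It was 9.05, 9.01, 8.76 and 8.74 in uninduced U-H01 and 8.35, 8.42, 7.65 and 8.82 in U-H01 labelled induced. The last of these arrays, replicate 4, lay above uninduced replicates 3 and 4, so the groups overlapped. The difference was -0.58 ± 0.16 (1.50-fold lower, adjusted p = 0.0107 in limma). Without U-H01 labelled induced replicate 3, the lowest array, it was -0.38 (adjusted p = 0.0378). HBL-1 stood above all U-H01 arrays, at 9.91 and 9.92 uninduced and 9.98 and 10.07 induced. U-H01 was lower than HBL-1 by 2.04-fold without induction (-1.03 ± 0.20, adjusted p = 0.00101) and by 3.27-fold between the groups labelled induced (-1.71 ± 0.20, adjusted p = 1.64e-05).

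BCL2A1 encodes A1, a short anti-apoptotic protein, and its gene is a textbook NF-kB target. Its U-H01 levels were low and close together, 5.48, 5.19, 5.41 and 5.47 uninduced and 5.32, 5.31, 5.18 and 5.25 labelled induced, and the groups overlapped. The difference of -0.13 ± 0.09 (-0.32 to 0.06) did not pass (adjusted p = 0.281 in limma). HBL-1 was above every U-H01 array, at 6.83 and 6.67 uninduced and 6.99 and 6.84 induced. U-H01 was 2.57-fold lower than HBL-1 uninduced (-1.36 ± 0.11, adjusted p = 3.7e-07) and 3.15-fold lower in the groups labelled induced (-1.65 ± 0.11, adjusted p = 6.83e-08). The U-H01 levels lay below the median gene of these arrays, which ranged from 6.10 to 6.33, and a fold computed from low levels may be understated.

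BAX and BAK1 encode the pore-forming effectors. BAX moved within a narrow range in all groups, with means of 8.81 ± 0.13 (SD, n = 4) in uninduced U-H01, 8.43 ± 0.12 (n = 4) in U-H01 labelled induced, 8.93 ± 0.09 (n = 2) in uninduced HBL-1 and 8.71 ± 0.04 (n = 2) in induced HBL-1. The U-H01 difference was -0.38 ± 0.09 (1.30-fold lower, adjusted p = 0.00241 in limma), and its arrays did not overlap. The lines did not pass against each other uninduced (-0.11 ± 0.11, adjusted p = 0.452) or in the groups labelled induced (-0.28 ± 0.11, -0.51 to -0.05, adjusted p = 0.0508).

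BAK1 was 9.27, 9.29, 8.84 and 8.84 in uninduced U-H01 and 8.69, 8.60, 8.77 and 8.73 in U-H01 labelled induced. The arrays did not overlap, although those of B2 differed by under 0.12 within each pair. The difference of -0.36 ± 0.13 was called (1.28-fold lower, adjusted p = 0.0347 in limma), and the call was lost without any 1 of the 4 arrays of B1, U-H01 uninduced or labelled induced replicate 1 or 2, with adjusted p between 0.11 and 0.137. In HBL-1 BAK1 was lower, at 7.81 and 7.89 uninduced and 8.32 and 7.72 induced, below all U-H01 arrays. Uninduced U-H01 exceeded uninduced HBL-1 by 1.21 ± 0.16 (2.31-fold, adjusted p = 3.5e-05). The groups labelled induced differed by 0.68 ± 0.16 (1.60-fold, adjusted p = 0.00353), which became 0.34 (adjusted p = 0.303) without HBL-1 induced replicate 2.

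BCL2L11 encodes BIM, a BH3-only protein that binds every anti-apoptotic member and also activates BAX and BAK1. Its level was 7.98, 7.92, 7.79 and 7.67 in uninduced U-H01 and 6.14, 5.88, 5.96 and 6.0 in U-H01 labelled induced. HBL-1 lay between, at 7.07 and 7.22 uninduced and 7.68 and 7.60 induced. Only the induced HBL-1 arrays touched another group, reaching into the lower end of uninduced U-H01. The U-H01 difference was -1.84 ± 0.09 (-2.03 to -1.66, 3.59-fold lower, adjusted p = 1.94e-09 in limma). Uninduced U-H01 exceeded uninduced HBL-1 by 0.69 ± 0.10 (1.62-fold, adjusted p = 0.000128), and U-H01 labelled induced was below induced HBL-1 by 3.13-fold (-1.65 ± 0.10, adjusted p = 5.93e-08).

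PMAIP1 encodes NOXA, a BH3-only protein that mainly binds MCL1 and A1. It was 10.81, 10.74, 10.59 and 10.41 in uninduced U-H01 and 8.78, 8.39, 8.20 and 8.66 in U-H01 labelled induced, with HBL-1 between at 9.11 and 9.19 uninduced and 9.14 and 8.97 induced. No U-H01 array fell into the range of the other U-H01 group or of HBL-1. The U-H01 difference was -2.13 ± 0.12 (-2.39 to -1.87, 4.38-fold lower, adjusted p = 1.1e-08 in limma). Uninduced U-H01 exceeded uninduced HBL-1 by 1.49 ± 0.15 (2.81-fold, adjusted p = 2.75e-06). U-H01 labelled induced was 1.46-fold below induced HBL-1 (-0.55 ± 0.15, adjusted p = 0.0087), a call lost without HBL-1 induced replicate 1 (-0.43, adjusted p = 0.24) or replicate 2 (-0.67, adjusted p = 0.0551).

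BID encodes a BH3-only protein that caspase-8 cleaves into its active form, linking death receptors to mitochondria. It was the BH3-only gene called higher: 7.41, 7.61, 7.12 and 7.24 in uninduced U-H01 against 9.04, 9.16, 8.71 and 8.87 in U-H01 labelled induced. The labelled induced arrays lay around the HBL-1 levels, which were 8.80 and 8.68 uninduced and 8.79 and 8.89 induced. The U-H01 difference was 1.60 ± 0.07 (1.44 to 1.76, 3.03-fold, adjusted p = 2.09e-09 in limma). Uninduced U-H01 was 2.63-fold below uninduced HBL-1 (-1.40 ± 0.09, adjusted p = 6.78e-08), and the groups labelled induced differed by 0.10 ± 0.09 (-0.09 to 0.30, adjusted p = 0.444).

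BBC3, which encodes PUMA, a BH3-only protein made in response to p53, varied least. Its group means were 7.0 ± 0.18 (SD, n = 4), 7.06 ± 0.14 (n = 4), 6.99 ± 0.17 (n = 2) and 7.01 ± 0.05 (n = 2) in the order uninduced U-H01, U-H01 labelled induced, uninduced HBL-1 and induced HBL-1. All 12 arrays lay within 0.44 of each other, and the SD over the arrays was larger than that of 19.0% of all genes. The U-H01 difference was 0.05 ± 0.09 (-0.15 to 0.26, adjusted p = 0.695 in limma).

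**Figure D2:**
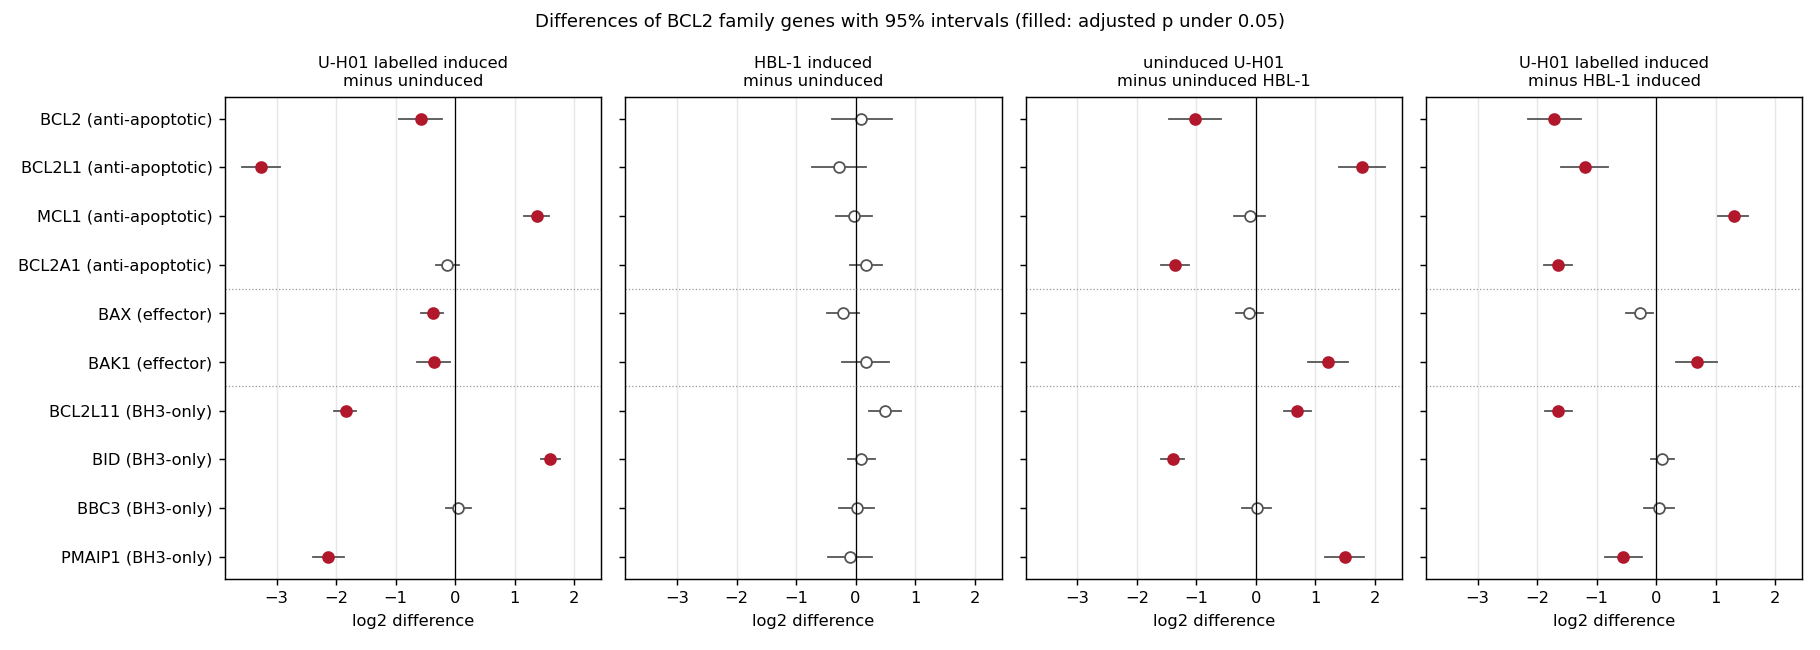
Log2 differences (horizontal axes) of the 10 genes in the 4 comparisons between groups, with bars for 95% intervals from limma and filled points for adjusted p under 0.05. BCL2L1 (-3.26), PMAIP1 (-2.13) and BCL2L11 (-1.84) lie farthest left and BID (1.60) and MCL1 (1.37) farthest right in U-H01, and in HBL-1 all 10 points are open.

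In HBL-1, doxycycline left the 10 genes within 0.49 of their uninduced means. None was called, 1 had an unadjusted p under 0.05 in limma, and 1807 of all genes did. BCL2L11 was that gene, higher in both induced arrays by 0.49 ± 0.12 (0.23 to 0.76, 1.41-fold, unadjusted p = 0.0015, adjusted p = 0.114). With HBL-1 fitted alone, on 1 residual degree of freedom, its adjusted p was 0.00464, and over all alternatives it ranged from 0.00464 to 0.779. BCL2L1 was lower in both pairs, by -0.30 and -0.26 (mean -0.28 ± 0.21, adjusted p = 0.786). BCL2A1 was higher by 0.17 in both pairs (adjusted p = 0.786). The arrays of both groups did not overlap for 5 of the 10 genes, 3 higher and 2 lower, and with 2 arrays a group 41.3% of all genes had no overlap. The intervals of BCL2L1 (-0.73 to 0.17), MCL1 (-0.32 to 0.27), BID (-0.13 to 0.33) and PMAIP1 (-0.46 to 0.27) leave out changes of the size seen in U-H01.

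Whether the 2 lines had the same labelled-induced-minus-uninduced value was tested as a term of the model. It passed for 5 of the 10 genes, 2 up and 3 down, where 32.5% of all genes passed, 15.5% up and 17.0% down. All U-H01 arrays were of the populations titled B1 and B2 and all HBL-1 arrays of the population titled C. A difference between the lines therefore cannot be told apart from one between the transduced populations or their hairpins. BCL2L1 differed by -2.98 ± 0.25 (adjusted p = 1.7e-06 in limma), BCL2L11 by -2.34 ± 0.15 (adjusted p = 1.16e-07) and PMAIP1 by -2.04 ± 0.21 (adjusted p = 7.54e-06). MCL1 differed by 1.40 ± 0.17 (adjusted p = 3.11e-05) and BID by 1.50 ± 0.13 (adjusted p = 1.93e-06). BCL2L11 had opposite signs in the lines, lower in all 4 U-H01 pairs and higher in both HBL-1 pairs. BCL2 (-0.68 ± 0.28, adjusted p = 0.0894) and BAK1 (-0.53 ± 0.22, adjusted p = 0.0922) did not pass. Each passed with 1 array left out: BCL2 at -0.92 (adjusted p = 0.00127) without U-H01 labelled induced replicate 4, and BAK1 at -0.87 (adjusted p = 0.0316) without HBL-1 replicate 2 of either group.

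Within U-H01 the populations B1 and B2 were compared pair by pair. The BCL2L1 difference was -3.73 and -3.64 in the B1 pairs and -2.96 and -2.73 in the B2 pairs. Fitted separately it was -3.69 ± 0.12 in B1 and -2.84 ± 0.12 in B2, and the difference between them, 0.85 ± 0.16 (0.49 to 1.20), was the single call among the 10 (adjusted p = 0.0429 in limma), where 0.608% of all genes were called, 0.380% with a higher value in B2. Leaving out any 1 array other than U-H01 labelled induced replicate 3 ended that call, with adjusted p between 0.0661 and 0.202. BAK1 was lower by 0.58 and 0.69 in the B1 pairs and by 0.07 and 0.11 in the B2 pairs, which gave -0.64 ± 0.14 (adjusted p = 0.00296) in B1 and -0.09 ± 0.14 (adjusted p = 0.703) in B2, and the difference between populations, 0.55 ± 0.20, did not pass (adjusted p = 0.302). BID was alike over the 4 pairs, at 1.63, 1.55, 1.59 and 1.63. MCL1 pairs were 1.0, 1.51, 1.44 and 1.54, and BCL2L11 pairs were -1.85, -2.04, -1.83 and -1.66. BCL2 was the most uneven, at -0.70, -0.59, -1.11 and 0.08. Time point 2 against 1 gave no call among the 10 or among all genes in either line (0.00%), by limma. An unadjusted p under 0.05 was reached by 1440 genes in U-H01 and 787 in HBL-1, and by none of the 10. The widest member difference was BCL2 in U-H01 at 0.30 ± 0.16 (adjusted p = 0.635).

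**Figure D3:**
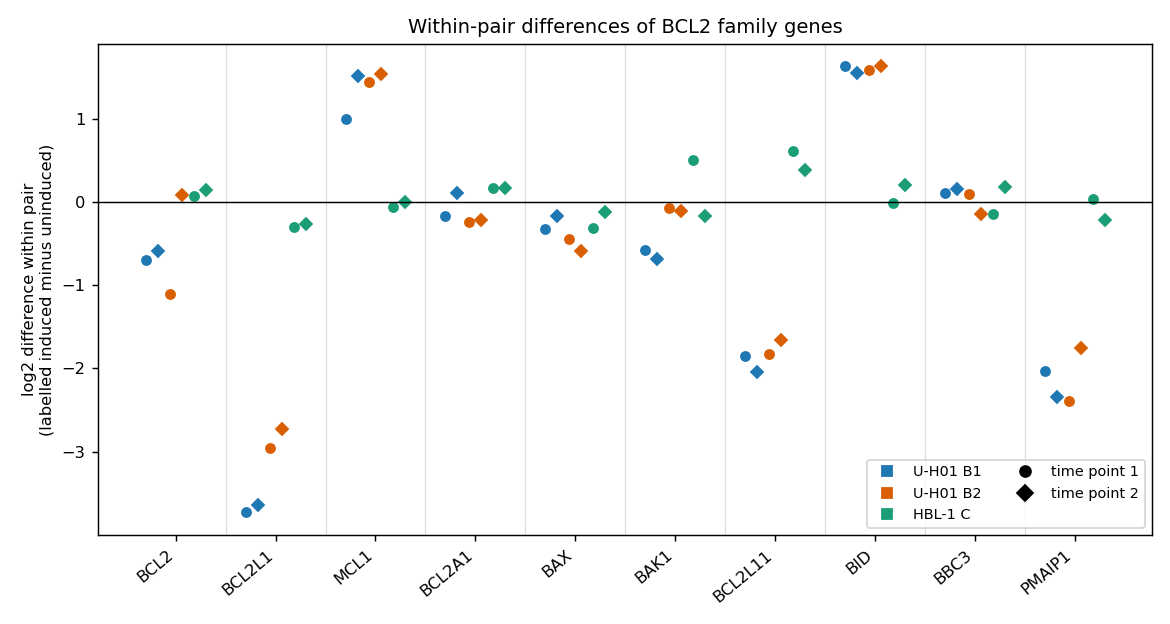
Log2 difference within each pair of arrays that share population and time (vertical axis, labelled induced minus uninduced) for the 10 genes, coloured by population. The 4 U-H01 pairs of BID lie between 1.55 and 1.63, those of BCL2L1 split into -3.73 and -3.64 for B1 and -2.96 and -2.73 for B2, and all HBL-1 pairs lie between -0.31 and 0.61.

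Pro-apoptotic and anti-apoptotic genes did not separate by direction in U-H01. Between the U-H01 groups 45.8% of all genes were called, 22.4% higher and 23.5% lower. Of the 4 anti-apoptotic genes, 1 was higher, 2 were lower and 1 was not called, with a median difference of -0.35. Of the 6 pro-apoptotic genes, 1 was higher, 4 were lower and 1 was not called, with a median of -0.37, while the median of all genes was 0.03. Both effectors and 2 of 4 BH3-only genes were among those lower. When each gene was centred on its mean over the 12 arrays, the anti-apoptotic genes averaged 0.03 to 0.37 per array in uninduced U-H01 and -0.69 to -0.31 in U-H01 labelled induced. The pro-apoptotic genes averaged 0.19 to 0.36 and -0.32 to -0.20. In HBL-1 the anti-apoptotic genes averaged 0.33 to 0.34 uninduced and 0.30 to 0.36 induced, and the pro-apoptotic genes -0.07 to -0.04 and -0.02 to 0.08. These averages weight the genes equally, say nothing of the balance of proteins, and had no test.

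Between the uninduced lines, 7 of the 10 genes were called, 4 higher in U-H01 and 3 lower, where 42.9% of all genes were called, 20.8% higher and 22.1% lower. The anti-apoptotic genes divided them, with BCL2L1 higher in U-H01 and BCL2 and BCL2A1 higher in HBL-1, and MCL1 did not pass. Of the 6 pro-apoptotic genes, BAK1, BCL2L11 and PMAIP1 were higher in U-H01, BID was higher in HBL-1, and BAX and BBC3 were not called. The arrays did not overlap for 7 of the 10 genes, against 55.3% of all genes. Between the groups labelled induced, 7 of the 10 were called, 2 higher and 5 lower in U-H01, where 38.6% of all genes were called, 18.0% higher and 20.6% lower. MCL1 and BAK1 were then higher in U-H01, and all the other called genes, BCL2, BCL2L1, BCL2A1, BCL2L11 and PMAIP1, were higher in HBL-1. The arrays did not overlap for 8 of the 10, against 48.5% of all genes.

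Further genes of the pathway were read from lists. Of 13 other BCL2 family genes, 12 were measured, and in U-H01 4 were higher and 2 lower, with a median difference of 0.13. The number called was close to the 45.8% of all genes in this comparison. BNIP3, a BH3-like mitophagy receptor induced by hypoxia, had means of 8.26 uninduced and 4.60 labelled induced (-3.66 ± 0.20, adjusted p = 7.79e-09 in limma), farther than any of the 10, while it averaged 9.09 and 9.63 in HBL-1. BMF, a BH3-only gene, was higher by 1.09 ± 0.18 (adjusted p = 2e-04), from 5.99 to 7.08, and remained below its HBL-1 means of 8.42 and 8.54. BCL2L12 was lower (-0.83 ± 0.11, adjusted p = 2.39e-05), and BCL2L15 was higher at low levels (4.13 to 4.61, adjusted p = 0.0028).

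Of 13 mitochondrial release and apoptosome genes, which act once the membrane opens, 11 were measured. In U-H01 5 were higher, none was lower and 6 were not called, a number called close to the share of all genes (45.8%). CASP9, the initiator caspase of the apoptosome, had means of 7.22 and 9.26 (2.04 ± 0.09, adjusted p = 1.01e-09 in limma), against 8.10 and 8.26 in HBL-1. DIABLO, which relieves caspase inhibition by IAP proteins, was higher by 1.02 ± 0.08 (adjusted p = 3.66e-07). AIFM1, a flavoprotein of the inner mitochondrial compartment, was higher by 0.61 ± 0.10 (adjusted p = 0.000208), and APAF1, the apoptosome scaffold, by 0.49 ± 0.10 (adjusted p = 0.0015). The median over the 11 was 0.19.

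Regulators known to act on the 10 genes were mixed. Of 18 p53 pathway genes, 16 were measured, 4 were higher, 2 lower and 10 not called in U-H01, with a median of 0.01, a share called below the 45.8% of all genes. The p53 ligase gene MDM2 was higher (0.79 ± 0.08, adjusted p = 4.49e-06 in limma), as was the death receptor gene TNFRSF10B (1.05 ± 0.12, adjusted p = 1.05e-05), whereas the stress gene SESN2 (-1.38 ± 0.17, adjusted p = 1.77e-05) and the death receptor gene FAS (-0.57 ± 0.15, adjusted p = 0.00655) were lower. All 5 genes of the MCL1 turnover list were called, 4 lower and 1 higher, with a median of -0.45, against 45.8% of all genes called and a median of 0.03. The lower ones included BTRC and FBXW7, substrate adaptors of ubiquitin ligases (-0.74 ± 0.09 and -0.56 ± 0.10), and USP9X, a deubiquitinase that stabilises MCL1 (-0.45 ± 0.08), so members that promote and members that oppose MCL1 degradation were lower together. USP13, another deubiquitinase of MCL1, was higher (0.23 ± 0.07, adjusted p = 0.023). Of 3 FOXO genes, whose products activate BCL2L11, FOXO1 was higher (0.43 ± 0.09, adjusted p = 0.00151) and the others were not called, a count of 1 of 3 that is too small to read against 45.8%. In HBL-1 no gene of the 5 lists was called in limma, and 6 had an unadjusted p under 0.05, as did 1807 of all 18417 genes. CYCS, the cytochrome c gene, was at -0.47 ± 0.12 (adjusted p = 0.12) and APAF1 at 0.50 ± 0.15 (adjusted p = 0.193).

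**Figure D4:**
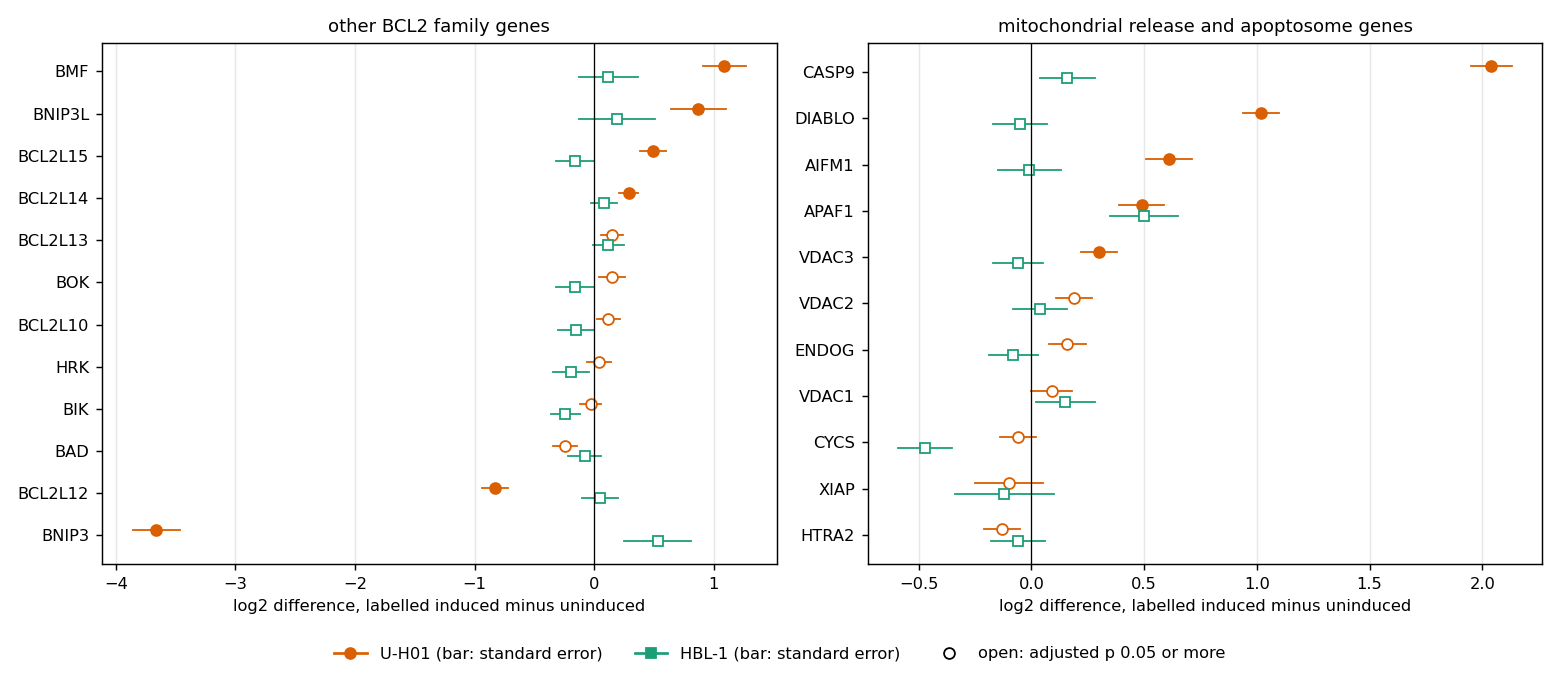
Log2 differences, labelled induced minus uninduced (horizontal axes), in U-H01 and HBL-1. Shown are the measured other BCL2 family genes and the measured mitochondrial release and apoptosome genes. Bars are standard errors, and open points are genes that were not called. BNIP3 (-3.66) and CASP9 (2.04) lie farthest from 0 in U-H01, and every HBL-1 point is open.

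The motif search behind the capitals in the 3 printed promoters covered 14 windows of 9 of the 10 genes, and MCL1 is named only. It used 5 motifs on both strands, chosen with the expression results known. They were the NF-kB consensus, a partial p53 site (RRRCWWGYYY), the GC box GGGCGG, the FOXO core GTAAACA and the cyclic AMP response element TGACGTCA. In the p53 letters R is A or G, W is A or T and Y is C or T. A full p53 site was not searched for. The GC box lay in 8 of the 14 windows, those of BAK1, BAX, BCL2L11, BID and PMAIP1, and in 42.64% of all 35116 promoter windows. Several of the 8 are BID windows that overlap one another, so the same letters are counted more than once. The FOXO core lay in the BCL2L11 window alone (2.98% of all windows) and the partial p53 site in the BAK1 window alone (5.57%). In the BAK1 window the partial p53 site overlapped a GC box. The NF-kB consensus (5.21%) and the cyclic AMP response element (1.65%) matched none of the 14. A match is a description of letters and not a bound site, and no match says only that the letters are not in this window.

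For each gene whose SD over the 12 arrays was at least 0.5, the 3 genes with the most similar profile were listed by Pearson's r over the 12 arrays. The 12 points share 4 groups, and the U-H01 groups stand far apart, so the points are not independent and r is a description. BCL2L1 was closest to YPEL5 (0.996), LINC01963 (0.996) and CD274, the gene of PD-L1 (0.995), which averaged 9.91 in uninduced U-H01 and 4.11 in U-H01 labelled induced. PMAIP1 was closest to SELENOK (0.994), CD80 (0.993) and ZNF483 (0.992), and BCL2L11 to RGS2 (0.989), GALNT7 (0.988) and ZNF587 (0.987). BCL2A1 was closest to SPIB, a B-cell transcription factor gene (0.996), followed by LRP6 (0.993) and OXR1 (0.993). BID was closest to KIF13B (0.992), PPIL3 (0.990) and PIM2, a survival kinase gene (0.989). MCL1 was closest to SLC35E2B (0.986), ZMIZ2 (0.986) and SREBF1 (0.985), BCL2 to TCTN2 (0.976), ARRDC3 (0.969) and SLC44A2 (0.968), and BAK1 to AGO2 (0.974), TTC23 (0.969) and CSRNP2 (0.964). BAX and BBC3 varied too little for the rule.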

How the data were processed

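Total RNA from 12 samples was labelled with biotin and hybridised to single-colour arrays. The authors deposited log2 values. Per the submitters' processing notes, RMA and Partek were used, with versions not given. RMA brings arrays to like distributions, which can hide a shift of all genes one way. The table holds 33297 probe sets, of which 19460 carry 1 gene symbol, 1754 several and 12083 none. Those with 1 symbol gave 18417 genes, and in 769 genes the probe set with the highest mean over the arrays was used. The number of arrays limits the precision.

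Differences came from 1 limma model (version 3.58.1, R 4.3.3, lmFit and eBayes) over the 12 arrays, with population, time point within line and induction within line as 7 terms and 5 residual degrees of freedom. Populations B1 and B2 were compared in a model of 8 terms. Tests were two-sided, with Benjamini-Hochberg adjustment over all genes. The same fit was tested on simulated data. The 10 members, the other gene lists and the motifs were chosen with earlier results of these data known. From the lists the text names up to 4 genes by p-value, and promoter windows were read with Python 3.11.15. Alternatives were the replicate block, a model of 4 group means, trend and robust options, each line alone, quantile normalization again, a filter at the median level, all probe sets and each array left out.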

Additional observations from a re-analysis of the deposited data

Results flagged for a closer look

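The difference between arrays labelled induced and uninduced was not the same in the 2 lines, by the interaction term in limma, for 5 of the 10 BCL2 family genes, where 32.5% of all genes passed. The difference in U-H01 minus that in HBL-1 was -2.98 for BCL2L1, -2.34 for BCL2L11 and -2.04 for PMAIP1, and 1.40 for MCL1 and 1.50 for BID. All 5 depend on both U-H01 groups, uninduced and labelled induced. Set against uninduced U-H01, the arrays labelled induced showed no called drop in RELB or REL. The B-cell genes CD79A, PAX5 and CD22 were called higher there, where 22.4% of all genes were. The remaining B-cell genes, CD79B (-0.06, adjusted p = 0.751 in limma) and MS4A1 (0.03, adjusted p = 0.816), were not called. For the U-H01 difference an effect of the hairpin and a difference in the identity of the cells cannot be told apart. The doubt about identity covers the uninduced U-H01 arrays as much as those labelled induced.

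BCL2L1 also differed between the U-H01 populations, with the difference in B2 minus that in B1 at 0.85 (adjusted p = 0.0429 in limma). Leaving out 1 array at a time ended that call in 11 of 12 fits. Of the 20 sets of 4 arrays formed by the 10 genes in the U-H01 groups, 0 had an array apart from the other 3, and chance alone would mark about 1 in 20.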

How the results depend on the processing

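Over the alternatives, 877 of 928 member values kept their direction and their side of the threshold, 7 gained a call, 19 lost one, and 25 changed sign. For induction in HBL-1, the 112 calls among all genes became 945 with HBL-1 fitted alone, 38 with all probe sets tested, and 8 to 149 with 1 array left out, namely 15 without replicate 1 and 8 without replicate 2 of either HBL-1 group. The count of members called became 1 with HBL-1 alone (BCL2L11). For B2 against B1 it was 0 to 1 with 1 array left out. With the replicate block, which pairs arrays by population and time, the members called were 8 in U-H01, 0 in HBL-1 and 5 for the difference between the lines, and no member's call changed. All genes called became 8201, 90 and 5738. Paired arrays deviated together at correlations of -0.03 to 0.14, so the numbers were not taken to pair the samples. No paired analysis was possible for the comparisons between lines because a pair lies within 1 line.

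Every sign change was in a value that was not called. With 1 array left out, the ranges in HBL-1 were -0.17 to 0.51 for BAK1, -0.14 to 0.18 for BBC3, -0.01 to 0.21 for BID, -0.06 to 0.00 for MCL1 and -0.22 to 0.03 for PMAIP1. BBC3 ranged from -0.01 to 0.14 in U-H01, from -0.14 to 0.17 between uninduced lines, from -0.11 to 0.21 between groups labelled induced and from -0.12 to 0.19 for the difference between the lines, and BID from -0.01 to 0.22 between groups labelled induced. With quantile normalization BBC3 was -0.05 and MCL1 0.00 between uninduced lines, and MCL1 was 0.00 in HBL-1. BAK1 in U-H01 also lost its call with all probe sets tested (adjusted p = 0.0675 in limma). BAX between the groups labelled induced passed with trend and robust options (adjusted p = 0.0383), above the median level (0.0321) and without U-H01 labelled induced replicate 2 (0.026). Added after seeing the data, a fit without U-H01 labelled induced arrays gave 7 member calls between uninduced lines. A fit without uninduced U-H01 gave 7 between groups labelled induced. In the fit of all 12 arrays, 42.9% and 38.6% of all genes were called in these comparisons, in that order. Each member has 1 probe set, so another was not run. Low levels such as those of BCL2A1 in U-H01 limit the folds.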

Other observations

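The uninduced arrays of the 2 lines, as labelled, differed in p53 pathway genes. The identity of the U-H01 cells is in doubt here too, since 4 of the 8 U-H01 arrays failed to match the others. Of the 16 measured, 10 were lower in uninduced U-H01 than in uninduced HBL-1, 4 higher and 2 not called in limma (42.9% of all genes were called), with a median difference of -0.55 against -0.03 for all genes. ZMAT3, an RNA-binding p53 target, averaged 7.47 and 9.54 (-2.07 ± 0.14, adjusted p = 7.84e-08), MDM2 8.64 and 9.71 (-1.06 ± 0.10, adjusted p = 2.34e-06) and AEN, a nuclease gene, 7.86 and 8.87 (-1.01 ± 0.10, adjusted p = 4.58e-06). FAS went the other way, at 9.43 and 6.37 (3.06 ± 0.18, adjusted p = 2.77e-08). BBC3, itself a p53 target, differed by 0.02 ± 0.11 (adjusted p = 0.933).

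BMF was 5.99 in uninduced U-H01 and 8.42 in uninduced HBL-1 (-2.43 ± 0.22, adjusted p = 1.16e-06 in limma), a wider gap between the uninduced lines than for any of the 10 members. Between the groups labelled induced BNIP3 differed by -5.03 ± 0.24 (adjusted p = 4.08e-09), with means of 4.60 in U-H01 and 9.63 in HBL-1.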
